A study of Mus musculus with 45 samples.

Results

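Macrophages that carried major histocompatibility complex class II (MHCII) on their surface were compared between day 7 and day 4 after cardiotoxin injury of mouse muscle. The mice of both groups were male C57Bl6 animals of 8 weeks. They were without the Foxp3.DTR transgene (DTR-), a diphtheria toxin (DT) receptor placed under the Foxp3 promoter. The comparison used 6 of the 45 arrays of the series: 4 from day 7, numbered 1 to 4, and 2 from day 4, numbered 2 and 3. The arrays were chosen by their titles, which name the day, the genotype and the F4-80+ MHCII+ gate. The day 7 arrays belong to a set titled with a DT time of 24 h, and the day 4 titles give no DT time. The day 7 gate was Ly6g- CD11b+ F4-80+, whereas the day 4 gate was restricted to live CD45+ cells and also left out SiglecF+ cells, the surface type of eosinophils. Day, set and gate therefore cannot be told apart in this comparison. As a measured check on the set, MHCII+ macrophages of DTR- mice at day 7 came in 2 more sets: 3 arrays with a DT time of 8 h from mice of 12 weeks, sorted with the SiglecF- step, and 2 arrays with no DT time from mice of 10 weeks, sorted without it. Each of these was set against the same 2 day 4 arrays, so the 3 comparisons share their controls. The labels do not say whether arrays of a group came from separate mice, nor from which moment the DT time is counted. The p-values measure only the spread between arrays within a group, as 1 estimate shared by all 18 groups of the 45 arrays. Whether this is a spread between mice is not known. A marker entry in the labels reads MHCII- for the arrays compared here, against their titles, and the titles were followed. H2-Ab1, a class II chain, lay at log2 13.83 to 14.00 in the day 7 arrays and at 13.86 and 13.91 in the day 4 arrays.

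Cardiotoxin kills muscle fibres, and the muscle is rebuilt within weeks from satellite cells. Monocytes enter the injured tissue early and turn into macrophages that clear debris. These give way to macrophages that release growth factors and take up dying cells and iron-rich material. Uninjured muscle holds resident macrophages, many of them near vessels, that carry scavenger and lectin receptors such as LYVE1, folate receptor beta and proteins of the CD209 family. MHCII+ cells in the F4/80+ gate can include macrophages that present antigen as well as cells close to dendritic cells.

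Array medians of the 6 arrays lay between 184.7 and 201.3 intensity units. Over the 11074 genes tested below, the day 7 arrays correlated with each other at 0.962 to 0.986. The day 4 arrays correlated at 0.983, and arrays of different days at 0.953 to 0.983. Adgre1 (F4/80) averaged 12.83 ± 0.09 at day 7 and 12.86 ± 0.13 at day 4, and Csf1r averaged 12.75 ± 0.31 and 12.98 ± 0.13 (SD, n = 4 and 2). None of the 10 macrophage identity genes passed in limma; their median difference was -0.18, with 3 of 10 above 0. Itgam (CD11b) had 11.27, 11.41, 10.71 and 11.44 at day 7 and 11.50 and 12.02 at day 4, a difference of -0.55 ± 0.18 (adjusted p = 0.099). The mean over the list was 12.44 to 12.73 in the day 7 arrays and 12.65 and 12.81 in the day 4 arrays.

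Of 11074 genes tested, 272 passed at an adjusted p under 0.05 (2.46%): 187 were higher at day 7 (1.69%) and 85 were lower (0.768%). A total of 47 higher and 11 lower genes changed at least 2-fold. The values of the day 7 and day 4 arrays did not overlap for 268 of the 272, and 16.6% of all tested genes had values that did not overlap. The median difference was 0.00 over tested genes and -0.03 over all 19752 genes on the array. With 4 arrays against 2 the counts depended on single arrays. Without day 4 replicate 2, 22 genes were higher and 19 lower; without day 4 replicate 3, 70 and 15; without day 7 replicate 4, 387 and 234; without day 7 replicate 1, 93 and 39; without day 7 replicate 3, 159 and 47. Of the 64 passing genes that are named here with a tested difference, 14 passed with each array left out and under each alternative processing in which they were tested, and 64 kept their direction in those fits. The 75th percentile filter left 16 of the 64 untested, Pvalb and Flt3 of the 14 among them. The 14 were Cd209f, Slc40a1, H2-M2, Ccl8, Bgn, Vsig4, Pvalb, Folr2, Cd36, Pdgfc, Spon1, Dpp4, Gcnt2 and Flt3.

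**Figure D1:**
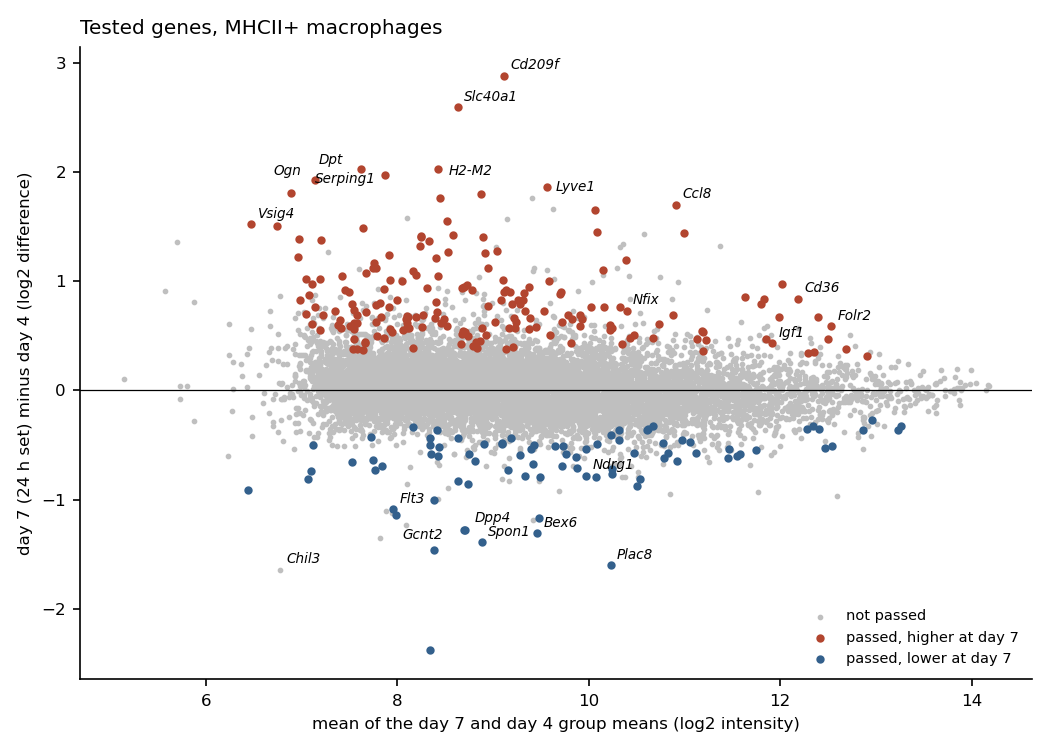
Each point is 1 of 11074 tested genes, with the mean of the day 7 and day 4 group means (log2 intensity) on the x axis and the day 7 minus day 4 log2 difference on the y axis; red and blue points passed at an adjusted p under 0.05. Cd209f (2.88) and Slc40a1 (2.59) lie at the top, and most genes that passed changed less than 2-fold.

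Some genes of resident macrophages were higher at day 7. The list held 23 genes on the array, of which 22 were tested; 6 rose (Cd209f, Lyve1, Vsig4, Txnip, Folr2 and Igf1) and 0 fell. The median difference over the 23 was 0.43, with 21 of 23 above 0, against a median of -0.03 and 42.7% above 0 over all genes. Cd209f, a C-type lectin gene of the family of DC-SIGN, had log2 intensities of 11.04, 10.55, 10.69 and 9.93 at day 7, against 7.33 and 8.02 at day 4. The mean rise was 2.88 ± 0.45 (SE), or 7.36-fold (adjusted p = 0.00031). The rule that named this gene took only genes whose days do not overlap. Lyve1, the hyaluronan receptor gene, had 10.63, 10.69, 10.43 and 10.23 at day 7 and 8.84 and 8.42 at day 4. It rose by 1.86 ± 0.36 (3.63-fold, adjusted p = 0.0026), and the call was lost without day 4 replicate 3 (adjusted p = 0.091). Vsig4 encodes a receptor for complement fragments of C3. Its values were 7.07, 7.64, 7.27 and 6.97 at day 7, against 5.75 and 5.68 at day 4, a rise of 1.52 ± 0.27 (adjusted p = 0.0015). Its mean lay below 7.57, the limit used to select genes, on both days, and it was tested because another group of the series reached that limit. Of the 64 passing genes named here, 7 had a day 7 mean and 17 a day 4 mean below the limit (at day 4, for example, Slc40a1, H2-M2, Dpt, Serping1, Ogn, Aspn, Pvalb, Chodl and Myf5), and their differences are of intensities and not exact folds of RNA. Folr2, the gene of folate receptor beta, rose by 0.59 ± 0.09 (adjusted p = 0.00023), with 12.86, 12.96, 12.80 and 12.71 at day 7 and 12.27 and 12.22 at day 4. Txnip, which encodes an inhibitor of thioredoxin, rose by 0.85 ± 0.16 (adjusted p = 0.0019; 0.13 without day 4 replicate 2). Igf1, a growth factor gene of muscle repair, was at 12.07 to 12.24 in the day 7 arrays and at 11.87 and 11.54 in the day 4 arrays; its rise of 0.43 ± 0.12 (adjusted p = 0.046) was lost when any array but day 7 replicate 4 was left out (adjusted p = 0.064 to 0.44). In bulk samples, fewer cells of a type and less RNA per cell cannot be told apart.

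The lectin and receptor genes did not all pass. Cd209d, of the same lectin family as Cd209f, differed by 1.09 ± 0.34, with 10.44, 10.17, 10.03 and 9.20 at day 7 and 8.77 and 8.98 at day 4. Its adjusted p of 0.086 missed the threshold. The days did not overlap, as for 16.6% of all tested genes. Cd163, a haemoglobin scavenger receptor gene, differed by 0.65 ± 0.28 (adjusted p = 0.24). Mrc1, the mannose receptor gene, differed by 0.13 ± 0.15 (adjusted p = 0.77).

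**Figure D2:**
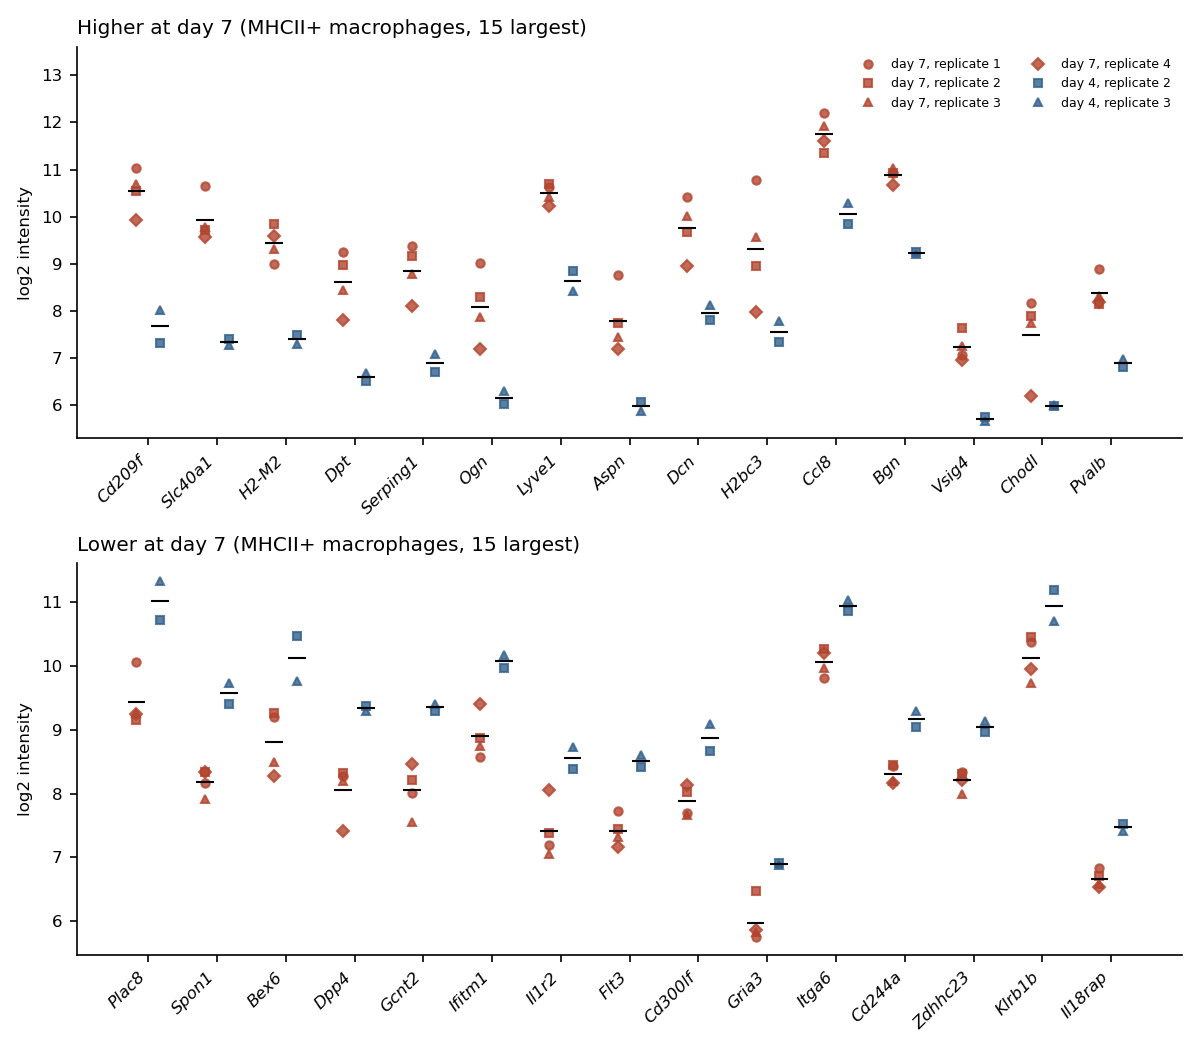
Log2 intensity in each array (y axis) of the 15 genes with the largest rise (top) and the 15 with the largest fall (bottom), by the rule for named genes; red marks are the 4 day 7 arrays, blue marks the 2 day 4 arrays, and lines are group means. The rule took only genes whose days do not overlap; day 7 replicate 4 (diamonds) lies lowest among day 7 arrays for Dpt, Ogn, Aspn, Dcn, H2bc3 and Chodl among others.

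Ferroportin, class Ib and chemokine genes stood beside the resident genes among the largest rises. Slc40a1 encodes ferroportin, which exports iron from macrophages. It had 10.66, 9.72, 9.78 and 9.58 at day 7, against 7.40 and 7.28 at day 4, a rise of 2.59 ± 0.39 (adjusted p = 0.00017). Blvrb, the gene of biliverdin reductase B in heme breakdown, rose by 0.79 ± 0.16 (adjusted p = 0.0036; 0.09 without day 4 replicate 2 and 0.053 without day 4 replicate 3). These were 2 of 20 tested genes of iron and heme handling, 0 fell, and the median over 22 genes on the array was 0.07. H2-M2, a nonclassical class I gene, had 9.0, 9.85, 9.31 and 9.59 at day 7 and 7.50 and 7.31 at day 4. It rose by 2.03 ± 0.21, with the lowest adjusted p of the genes named here, 2.8e-07. Ccl8, which encodes a chemokine that attracts leukocytes, had 12.19, 11.35, 11.92 and 11.60 at day 7, against 9.84 and 10.29 at day 4. It rose by 1.70 ± 0.21 (3.25-fold, adjusted p = 1.7e-05) and was the 1 of 13 CC chemokine genes that passed. Pf4, a CXC chemokine gene of platelets and of some macrophages, rose by 0.67 ± 0.12 (adjusted p = 0.001; 0.057 without day 4 replicate 2) as 1 of 12 tested CXC chemokine genes. Slc40a1, H2-M2 and Ccl8 were named by a rule that took only genes whose days do not overlap. For Blvrb and Pf4 the days did not overlap either, as for 16.6% of all tested genes.

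Promoter sequences are shown for the higher macrophage genes just described, since they rose together. Of 6 genes looked up (Cd209f, Slc40a1, H2-M2, Lyve1, Ccl8 and Vsig4), 4 were in the RefSeq promoter table of build GRCm38.p6, which covers 250 bases before to 50 after the start of a gene. Capitals mark matches, on either strand, to the motifs described in the next paragraph.
Cd209f promoter, chr8:4105715-4106014, minus strand: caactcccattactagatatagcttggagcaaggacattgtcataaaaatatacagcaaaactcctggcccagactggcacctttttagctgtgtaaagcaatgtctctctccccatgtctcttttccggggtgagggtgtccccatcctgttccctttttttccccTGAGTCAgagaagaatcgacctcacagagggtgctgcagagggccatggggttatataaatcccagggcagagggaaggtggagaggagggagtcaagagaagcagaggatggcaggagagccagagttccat
H2-M2 promoter, chr17:37483505-37483804, minus strand: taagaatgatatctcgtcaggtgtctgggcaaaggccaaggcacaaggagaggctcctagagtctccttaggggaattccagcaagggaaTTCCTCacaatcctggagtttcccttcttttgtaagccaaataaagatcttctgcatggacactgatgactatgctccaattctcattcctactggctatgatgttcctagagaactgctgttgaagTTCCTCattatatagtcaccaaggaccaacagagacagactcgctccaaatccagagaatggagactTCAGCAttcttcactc
Ccl8 promoter, chr11:82114935-82115234, plus strand: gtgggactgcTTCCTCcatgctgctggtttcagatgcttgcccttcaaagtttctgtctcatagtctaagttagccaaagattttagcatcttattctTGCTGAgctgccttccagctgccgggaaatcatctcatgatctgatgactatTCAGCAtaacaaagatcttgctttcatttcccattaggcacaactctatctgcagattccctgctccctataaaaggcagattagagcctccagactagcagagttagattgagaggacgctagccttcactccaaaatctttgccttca
Vsig4 promoter, chrX:96293389-96293688, minus strand: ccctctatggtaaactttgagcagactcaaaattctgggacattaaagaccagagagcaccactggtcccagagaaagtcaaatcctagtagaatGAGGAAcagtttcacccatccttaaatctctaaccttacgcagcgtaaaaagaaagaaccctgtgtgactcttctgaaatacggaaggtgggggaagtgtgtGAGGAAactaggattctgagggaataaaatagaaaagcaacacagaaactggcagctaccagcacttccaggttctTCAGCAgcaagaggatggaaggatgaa

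Searched were 7 motifs on both strands: the ETS core GAGGAA bound by PU.1, the MAF half-site TGCTGA, the AP-1 site TGANTCA, the RUNX site TGTGGT, the STAT site TTCNNNGAA, the E-box CACGTG and the interferon response element, searched by its consensus letters. The ETS core and the MAF half-site were each found in 3 of the 4 windows (H2-M2, Ccl8 and Vsig4), and in 28.3% and 19.5% of all 32851 promoters of that length. The AP-1 site was found in the Cd209f window, with its first base at -83 from the start, and in 7.8% of all promoters. The RUNX site, the STAT site, the E-box and the interferon response element were in 0 of the 4 windows, and in 16.8%, 8.3%, 7.2% and 3.4% of all promoters. No 2 of the matches in capitals overlap. A match is a description of letters and not of a bound site.

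Levels on the other days are given as a description, since those arrays come from other sets. The 2 day 0 arrays were from mice of 10 weeks with no DT time. The 2 day 1 arrays were from mice of 8 weeks with a DT time of 24 h. Cd209f averaged 12.86 in uninjured muscle (day 0) and 8.00 at day 1, so that its day 7 mean of 10.55 lay between the day 0 level and the levels of days 1 and 4. Lyve1 averaged 12.53 at day 0, 10.20 at day 1, 8.63 at day 4 and 10.50 at day 7. Folr2 had means of 12.93, 12.11, 12.24 and 12.83 on days 0, 1, 4 and 7, and Vsig4 of 7.23, 5.60, 5.71 and 7.24. For the last 2 genes the day 0 and day 7 arrays overlapped. H2-M2, Slc40a1 and Ccl8 lay above their day 0 means at day 7: H2-M2 averaged 9.44 at day 7 and 7.84 at day 0, and Slc40a1 averaged 9.93 at day 7 and 7.86 at day 0. Ccl8 averaged 11.76 at day 7 and 11.07 at day 0, where the arrays overlapped. Plac8 and Spon1 ran the other way, with day 7 means of 9.43 and 8.19 near their day 0 means of 8.96 and 7.99, and with 11.08 and 9.46 at day 1.

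**Figure D3:**
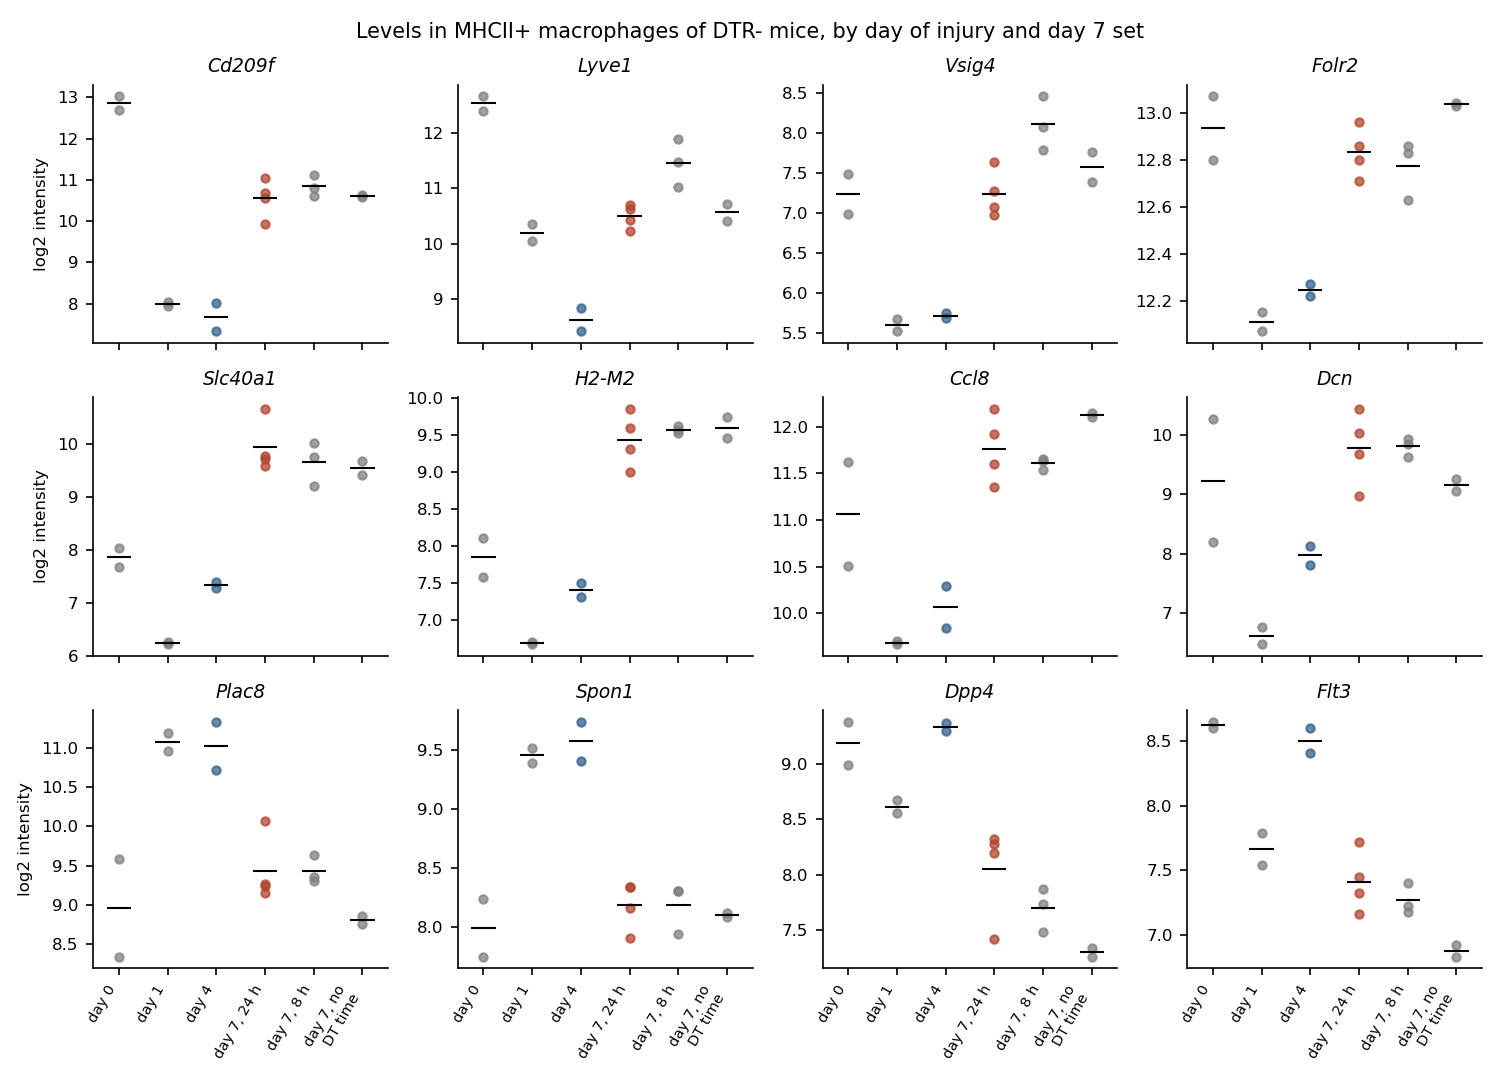
Log2 intensity (y axes, each with its own range) of 12 genes in each MHCII+ array of DTR- mice, from day 0 to the 3 day 7 sets; blue is day 4, red the 24 h day 7 set, grey the other groups, and lines are means. The 3 day 7 sets lie on the same side of day 4 for each of the 12 genes. Age and DT time differ among the groups, as given in the text.

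Few genes of lipid handling, the lysosome and growth signals passed, where 2.46% of all tested genes did. Cd36, a scavenger receptor and fatty acid carrier gene, had 12.68, 12.65, 12.69 and 12.40 at day 7 and 11.84 and 11.70 at day 4, a rise of 0.84 ± 0.12 (adjusted p = 6.3e-05). Mmp12, the gene of macrophage elastase, rose by 0.97 ± 0.22 (adjusted p = 0.011; 0.13 and 0.11 without day 4 replicates 2 and 3). They were the 2 of 24 lipid-associated macrophage genes that passed. Gpnmb (-0.00 ± 0.10) and Trem2 (0.21 ± 0.12) of this list did not pass (adjusted p = 0.997 and 0.43). Atp6v0d2, a subunit gene of the proton pump, rose by 0.67 ± 0.13 (adjusted p = 0.0027; 0.10 without day 4 replicate 3) as 1 of 30 lysosomal genes, whose median was 0.01 with 16 of 30 above 0. Among growth factors, Pdgfc, a ligand gene of the PDGF alpha receptor, had 10.02, 10.24, 10.26 and 10.03 at day 7 and 9.31 and 9.21 at day 4, and rose by 0.88 ± 0.15 (adjusted p = 0.00079). Tgfb3 rose by 0.80 ± 0.16 (adjusted p = 0.004; 0.056 and 0.10 without day 4 replicates 2 and 3), whereas Tgfbi, a matrix protein gene induced by TGF-beta, fell by 0.36 (SE 0.09, adjusted p = 0.022; 0.074 to 0.17 without 1 of day 4 replicates 2 and 3 or day 7 replicates 1 and 3). With Igf1 that made 3 higher and 1 lower of 20 tested growth factor and repair genes, whose median was 0.03 over 24 on the array and -0.02 over those tested.

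Transcription factor and clearance genes passed in few members, where 2.46% of all tested genes passed. Nfix and Nfia, which encode factors of the nuclear factor I family, rose by 0.73 ± 0.12 and 0.57 ± 0.13 (adjusted p = 0.00033 and 0.016) and were the 2 of 27 macrophage transcription factor genes that passed. Nfix was at 10.74, 10.82, 10.68 and 10.80 at day 7 and at 10.05 and 10.01 at day 4. Nfix lost the call with the compared arrays only (adjusted p = 0.08), and Nfia lost the call without day 4 replicate 2 or 3 (adjusted p = 0.083 and 0.20). Of 21 efferocytosis genes, Mfge8, which bridges dying cells to integrins, rose by 1.10 ± 0.29 (adjusted p = 0.038) and Cd36 rose as above. Itgav, the integrin chain gene that binds the Mfge8 product, fell by 0.60 (SE 0.16, adjusted p = 0.031). The calls of Mfge8 and Itgav were lost without either day 4 array (adjusted p = 0.14 to 0.26) and without day 7 replicates 1 or 3 (0.064 to 0.13), and that of Mfge8 also without day 7 replicate 2 (0.079). Among complement genes Serping1 and Vsig4 passed as 2 of 16. Gclm, 1 of 19 NRF2 antioxidant genes, rose by 0.76 ± 0.20 (adjusted p = 0.031; 0.33, 0.10 and 0.11 without day 4 replicates 2 and 3 and day 7 replicate 1).

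Among the lower genes were a monocyte gene and dendritic cell genes. Plac8, a cysteine-rich protein gene of blood monocytes, had 10.07, 9.15, 9.26 and 9.24 at day 7, against 10.72 and 11.33 at day 4. The rule that named it took only genes whose days do not overlap, and its call was lost without either day 4 array. The gene fell by 1.60 (SE 0.35, adjusted p = 0.0092). It was the 1 of 21 classical monocyte genes that fell; Mgst1, a glutathione transferase gene on that list, rose by 0.90 ± 0.25 (adjusted p = 0.047), a call lost when any array but day 7 replicate 4 was left out (0.071 to 0.44). Of the 21 genes, 3 lay above 0, and the median was -0.42, against 42.7% and -0.03 over all genes. Chil3, a chitinase-like gene of alternative activation and of monocytes, was at 5.74, 6.26, 5.97 and 5.83 at day 7 and at 7.26 and 7.93 at day 4. Its difference of -1.64 ± 0.47 missed the threshold (adjusted p = 0.057). The days did not overlap, as for 16.6% of all tested genes. Ccr2, the receptor gene that brings monocytes to tissue, differed by -0.46 ± 0.32 (adjusted p = 0.53).

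Flt3, the receptor gene of the growth factor of dendritic cells, had 7.72, 7.45, 7.32 and 7.16 at day 7, against 8.41 and 8.60 at day 4, and fell by 1.09 (SE 0.16, adjusted p = 0.00018). Dpp4, a surface peptidase gene, had 8.28, 8.32, 8.20 and 7.42 at day 7 and 9.37 and 9.30 at day 4, and fell by 1.28 (SE 0.22, adjusted p = 0.00079). They were the 2 of 15 tested dendritic cell genes that passed, and 0 rose. The median over 18 genes on the array was -0.12, with 7 of 18 above 0, against -0.03 and 42.7% over all genes. Kmo and Tlr3 of this list differed by -0.69 ± 0.22 and 0.43 ± 0.16 and did not pass (adjusted p = 0.084 and 0.16). The mean over the dendritic cell list was 8.62 to 8.96 in the day 7 arrays and 9.01 and 9.07 in the day 4 arrays. The part of a change in cell makeup in these values was not tested.

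Several further genes were lower. Spon1, which encodes the matrix protein F-spondin, had 8.16, 8.34, 7.91 and 8.34 at day 7 and 9.41 and 9.74 at day 4, a fall of 1.39 (SE 0.19, adjusted p = 6.3e-05). Gcnt2, a glycosyltransferase gene, fell by 1.28 (SE 0.21, adjusted p = 0.0005), with 7.56 to 8.47 at day 7 and 9.30 and 9.40 at day 4. Both kept the call without any 1 array. Bex6 fell by 1.31 (adjusted p = 0.0051; 0.24 without day 4 replicate 2), the interferon-inducible membrane protein gene Ifitm1 by 1.17 (0.012; 0.052 without day 7 replicate 1, and 0.10 and 0.16 without day 4 replicates 2 and 3), and Il1r2, the decoy receptor gene of interleukin-1, by 1.14 (0.0091; 0.061 and 0.17 without day 4 replicates 2 and 3). Of 22 receptors of the Fc and immunoregulatory list, 2 rose (Cd226 and Cd200r1) and 3 fell. The 3 were Cd300lf (-1.0 ± 0.19), Cd244a (-0.86 ± 0.17) and Klrb1b (-0.81 ± 0.19), with adjusted p of 0.0027, 0.004 and 0.012; the calls of the first 2 were lost without day 4 replicate 3 (0.14 and 0.13) and that of Klrb1b without day 4 replicate 2 (0.34). Cd200r1, an inhibitory receptor gene, rose by 0.79 ± 0.18 (adjusted p = 0.014; 0.19, 0.094 and 0.062 without day 4 replicates 2 and 3 and day 7 replicate 1). Gria3, Itga6, Zdhhc23 and Il18rap fell by 0.91, 0.88, 0.83 and 0.81 (adjusted p = 0.0045, 0.0034, 0.0019 and 0.011). Each of these 4 lost its call without day 4 replicate 3 (0.067 to 0.094), and Gria3 and Il18rap also without day 4 replicate 2 (0.098 and 0.16). Of 18 chemokine and adhesion receptor genes, Itga6 and Cxcr4 (-0.51 ± 0.13, adjusted p = 0.022) fell and 0 rose; Cxcr4 was not called without either day 4 array (0.20 and 0.14) or without day 7 replicates 1 or 2 (0.08 and 0.061). The costimulatory ligand genes Tnfsf14 (LIGHT) and Tnfsf9 (4-1BB ligand) fell by 0.69 and 0.77 (adjusted p = 0.0019 and 0.029), and Vsig4 and Cd200r1 rose, as 4 of 18 on that list. Tnfsf14 lost the call without day 4 replicate 3 (0.093) and Tnfsf9 without day 4 replicates 2 or 3 (0.061 and 0.33) and day 7 replicates 1 or 3 (0.052 and 0.061). Ndrg1, a gene of the hypoxia response, fell by 0.78 (SE 0.12, adjusted p = 0.00019; 0.11 with the compared arrays only) as 1 of 23 on the glycolysis and hypoxia list. Tlr2, a receptor gene for bacterial lipoproteins, fell by 0.58 (adjusted p = 0.029), as 1 of 31 pattern recognition and lectin receptor genes, and was not called without either day 4 array (0.13 and 0.23) or without day 7 replicates 1 or 3 (0.095 and 0.084).

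Most cytokine, interferon and metabolic lists had few or no genes that passed. Among all tested genes 2.46% passed, so a count of 0 or 1 in a list of this size says little about the list. Of 25 tested inflammatory and NF-kB genes, 0 passed. Their median over 27 on the array was -0.22, with 4 of 27 above 0, against -0.03 and 42.7% over all genes. Nlrp3, an inflammasome sensor gene, was at 9.40, 9.95, 10.04 and 10.43 at day 7 and at 10.58 and 10.90 at day 4, a difference of -0.79 ± 0.24 that missed the threshold (adjusted p = 0.08). Il1b (-0.42 ± 0.16) and Tnf (-0.41 ± 0.13) did not pass either (adjusted p = 0.18 and 0.093). The days did not overlap for either gene, as for 16.6% of all tested genes. Of 26 type I interferon-stimulated genes 0 passed, and of 25 tested IFN-gamma-induced genes 1 did. That gene, Iigp1, a GTPase gene, had 8.83, 9.23, 8.49 and 9.04 at day 7 and 7.47 and 7.67 at day 4, and rose by 1.32 ± 0.30 (adjusted p = 0.011; 0.18 and 0.083 without day 4 replicates 2 and 3). Cell division genes had 0 of 32 and DNA replication genes 1 of 30 (Prim2, a primase subunit gene, 0.57 ± 0.15, adjusted p = 0.031; 0.064 to 0.39 without 1 of day 4 replicates 2 and 3 and day 7 replicates 1 and 2). Oxidative phosphorylation had 1 of 31 (Ndufa5, 0.44 ± 0.11, adjusted p = 0.023; 0.36 without day 4 replicate 2 and 0.098 without day 7 replicate 1). Mki67, the proliferation marker, differed by 0.10 ± 0.29 and Arg1, the arginase gene, by -0.43 ± 0.53 (adjusted p = 0.92 and 0.77). Of the matrix protease list, Mmp12, Mmp27 (0.76 ± 0.21) and Timp2 (0.34 ± 0.09), an inhibitor, rose as 3 of 19 tested genes. Mmp27 and Timp2, each with an adjusted p of 0.047, were not called without day 7 replicate 1 or 2 (0.09 to 0.13) or day 4 replicate 2 (0.63 and 0.32), nor Timp2 without day 4 replicate 3 (0.17).

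**Figure D4:**
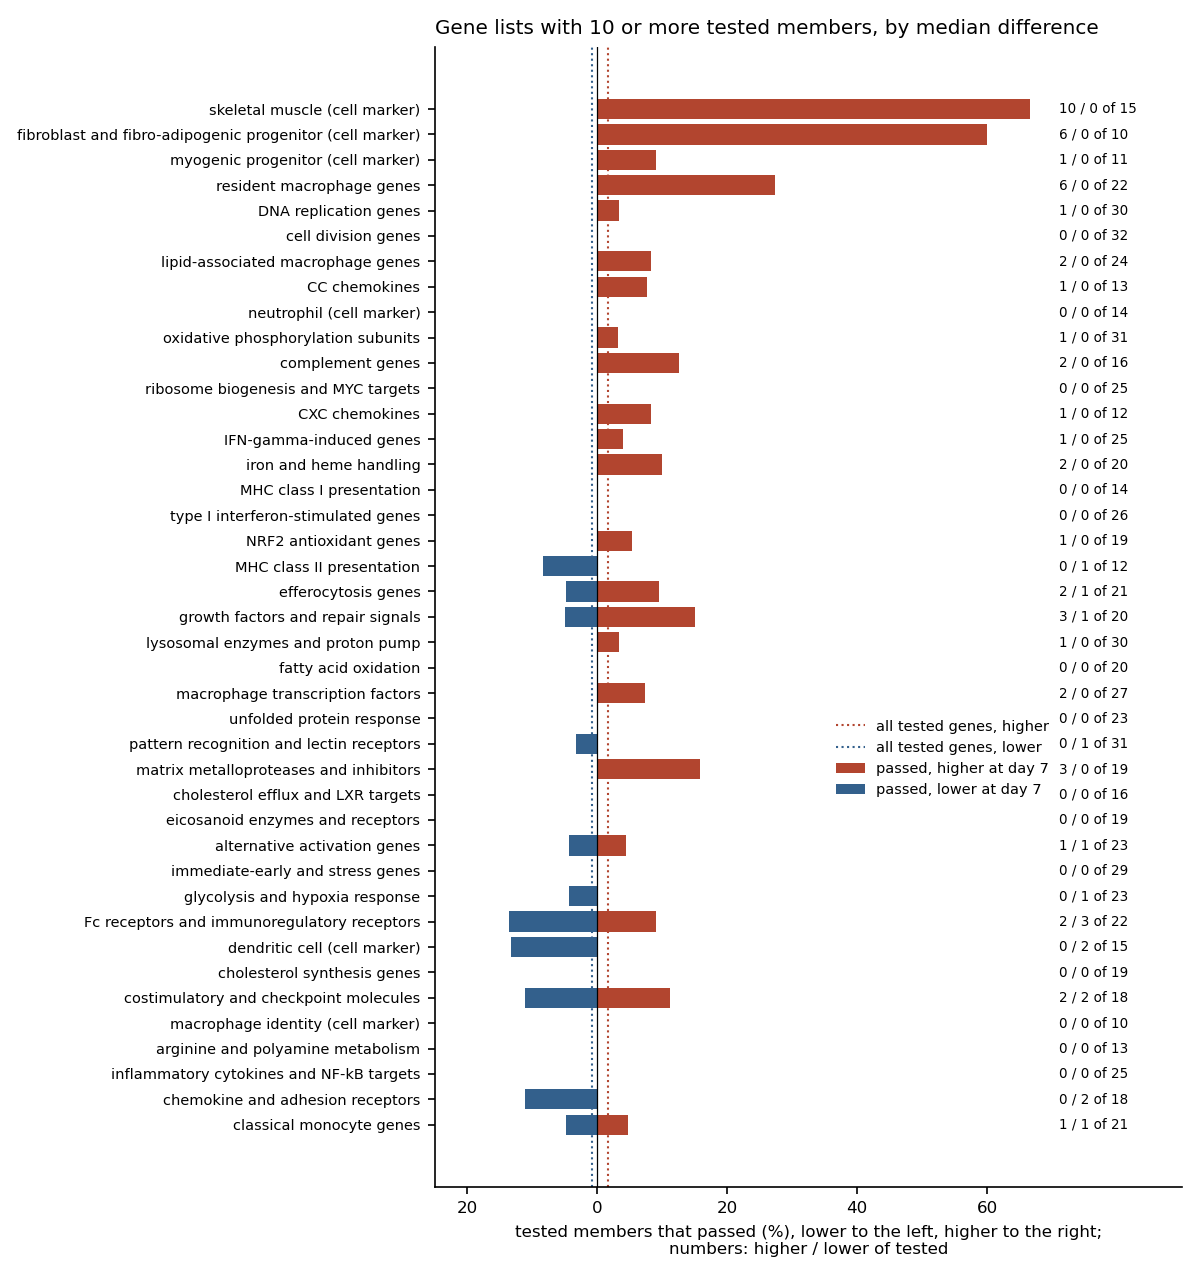
Share of tested members that passed (x axis, %) for the 41 gene lists with 10 or more tested members, ordered by median difference; red bars to the right are genes higher at day 7, blue bars to the left genes lower at day 7, and dotted lines the shares among all tested genes (1.69% and 0.768%). The longest bars belong to skeletal muscle (10 of 15) and fibroblast (6 of 10) markers, followed by resident macrophage genes (6 of 22).

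Across the 35 lists of macrophage functions, 12 had no gene that passed and 10 had 1, where 2.46% of all tested genes passed. The members and lists were chosen with earlier results of these data known, so their counts are descriptions.

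Genes of muscle fibres and of fibroblasts also rose, in a gate meant for macrophages. Of 15 tested skeletal muscle markers 10 rose and 0 fell (Pvalb, Myl1, Ckm, Mylpf, Tnnt3, Atp2a1, Casq1, Actn3, Tnnc2 and Mb). The mean log2 intensity over the 20 listed genes on the array was 8.79, 8.23, 8.46 and 8.22 in the day 7 arrays, against 7.83 and 7.80 in the day 4 arrays, without overlap. Pvalb, the parvalbumin gene of fast fibres, had 8.90, 8.15, 8.33 and 8.19 at day 7 and 6.82 and 6.98 at day 4 (1.49 ± 0.22, adjusted p = 0.00016). Myl1, a myosin light chain gene, rose by 1.44 ± 0.29 (adjusted p = 0.0037; 0.16 without day 4 replicate 3), and Mylpf, of another light chain, by 0.92 ± 0.20 (adjusted p = 0.0079; 0.16 and 0.059 without day 4 replicates 2 and 3). Of 10 tested fibroblast markers 6 rose and 0 fell (Dpt, Dcn, Sparc, Postn, Col1a2 and Col3a1). Col3a1, a collagen gene, rose by 0.50 ± 0.10 (adjusted p = 0.0032; 0.066 and 0.064 without day 4 replicates 2 and 3). The mean over the 15 genes of that list on the array was 8.53, 8.23, 8.35 and 7.93 at day 7, against 7.61 and 7.61 at day 4. Pdgfra, the receptor gene that defines fibro-adipogenic progenitors, was below the intensity limit in all 6 arrays (7.02 to 7.28 at day 7, 6.98 and 6.90 at day 4) and was not tested. Intensities have no true zero, so no marker can be called absent.

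Several matrix genes among the largest rises were lowest, among the day 7 arrays, in replicate 4. Dpt, the dermatopontin gene, had 9.25, 8.98, 8.45 and 7.82 at day 7 and 6.52 and 6.68 at day 4. It rose by 2.03 ± 0.40 (adjusted p = 0.0033), and day 7 replicate 4 was the lowest of the 4. The proteoglycan genes Ogn, Aspn and Dcn rose by 1.93 ± 0.38, 1.81 ± 0.34 and 1.80 ± 0.41 (adjusted p = 0.0032, 0.0019 and 0.012), again with the lowest day 7 value in replicate 4. Serping1, the gene of the C1 inhibitor, rose by 1.97 ± 0.36 (adjusted p = 0.0019), with 9.37, 9.16, 8.79 and 8.11 at day 7 and 6.70 and 7.08 at day 4. Sparc, a collagen-binding protein gene, rose by 1.45 ± 0.29 (adjusted p = 0.0037). Bgn, the biglycan gene, was even among the arrays, with 10.93, 10.92, 11.04 and 10.67 at day 7 and 9.25 and 9.22 at day 4 (1.65 ± 0.24, adjusted p = 0.00016). Chodl (1.5 ± 0.42) and H2bc3, a histone gene (1.76 ± 0.49), passed narrowly (adjusted p = 0.046 and 0.047) and were not called when any array but day 7 replicate 4 was left out (0.054 to 0.35). Without day 4 replicate 2, Dpt, Serping1, Ogn, Dcn and Sparc were not called (0.087 to 0.19), nor Aspn and Dcn without day 4 replicate 3 (0.059 and 0.083), nor Dcn without day 7 replicate 1 (0.055). The median difference from day 4 of the tested fibroblast markers was 0.52 in the 24 h set, 0.64 in the 8 h set and 0.11 in the set without a DT time. In the same order of sets these medians were 0.47, 0.75 and 0.78 for the tested resident macrophage genes, and 0.74, 0.90 and 0.85 for skeletal muscle markers. The part of other cells or of their RNA in any single gene was not tested.

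**Figure D5:**
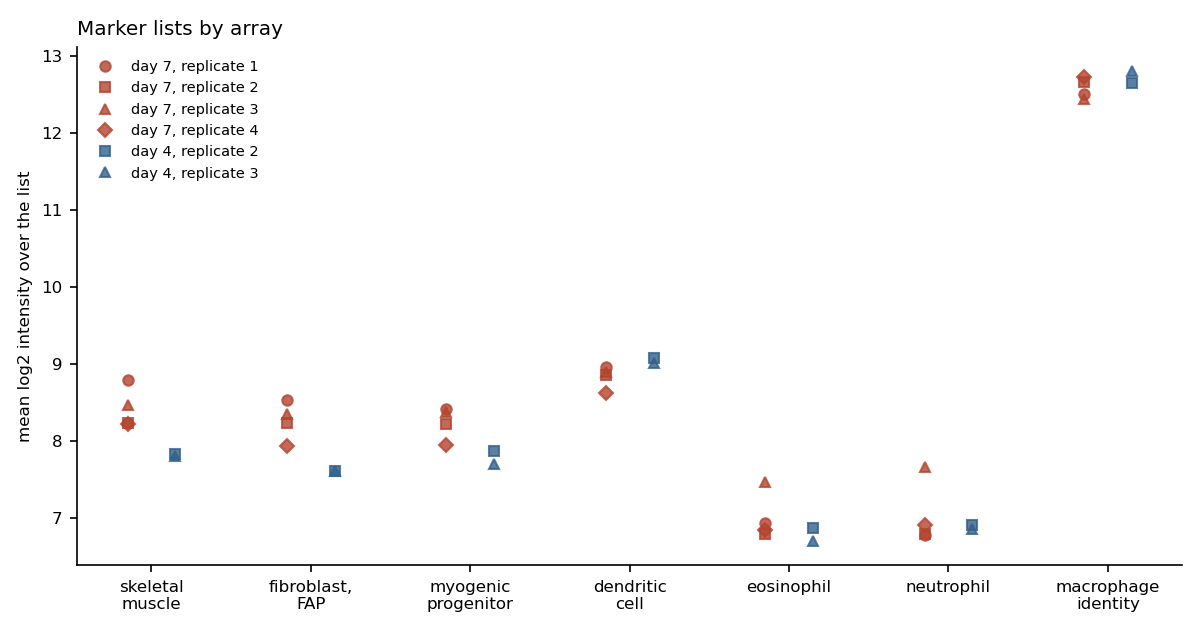
Mean log2 intensity (y axis) over 7 marker lists in each array; red marks are day 7 arrays 1 to 4, blue marks day 4 arrays 2 and 3. The days do not overlap for skeletal muscle, fibroblast, myogenic progenitor and dendritic cell markers, and day 7 replicate 3 lies apart for eosinophil (7.46) and neutrophil (7.66) markers.

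Eosinophil markers, which bear on the SiglecF step, did not pass. Siglecf itself was at 7.99, 7.73, 8.14 and 7.92 at day 7, sorted without a SiglecF step, and at 7.94 and 7.83 at day 4, sorted with one; it differed by 0.06 ± 0.13 (adjusted p = 0.88). Of 5 tested eosinophil markers 0 passed. Over the 11 genes of the list on the array the median difference was 0.19, with 9 of 11 above 0, against -0.03 and 42.7% over all genes. Rnase2a had 8.04, 8.31, 7.90 and 7.38 at day 7 and 6.49 and 6.79 at day 4. Its difference of 1.27 ± 0.41 missed the threshold (adjusted p = 0.1). The days did not overlap, as for 16.6% of all tested genes. Ccr3 and Cebpe differed by 0.29 ± 0.15 and 0.11 ± 0.13 (adjusted p = 0.35 and 0.77). The mean over the 11 genes of the list on the array was 7.46 in day 7 replicate 3 and 6.79 to 6.93 in the other 3 day 7 arrays, against 6.86 and 6.69 at day 4. Prg2, an eosinophil granule gene below the intensity limit in each group, was at 7.90 in day 7 replicate 3 and at 6.19 to 6.28 in the others. Of 14 tested neutrophil markers 0 passed; the mean over the 17 on the array was 7.66 in day 7 replicate 3, against 6.77 to 6.91 in the other day 7 arrays and 6.91 and 6.85 at day 4. Without day 7 replicate 3 the resident genes Cd209f, Vsig4 and Folr2 and the genes Slc40a1, H2-M2 and Ccl8 passed (adjusted p = 1.1e-06 to 0.0039). Of 11 tested myogenic progenitor markers 1 passed, Myf5 (1.38 ± 0.36, adjusted p = 0.03); it lay at 8.44, 8.06 and 8.29 in day 7 replicates 1 to 3 and at 6.79 in replicate 4, against 6.56 and 6.46 at day 4, and was not called when any array but day 7 replicate 4 was left out (0.061 to 0.19). In 11 of the 15 marker lists no gene passed; of these the NK cell list had 0 tested genes, the erythroid list 1, and the B cell and the mast cell and basophil lists 2 each.

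Class II genes, whose product the cells were sorted on, did not pass in MHCII+ cells, and their day 7 minus day 4 difference was smaller than in MHCII- cells. In the MHCII+ arrays H2-Ab1 differed by 0.02 ± 0.13, H2-Aa by 0.08 ± 0.19, Cd74 by 0.11 ± 0.11 and Ciita, the class II transactivator gene, by 0.08 ± 0.18 (adjusted p = 0.69 to 0.96). Of 12 class II presentation genes 1 passed, Ifi30, a lysosomal thiol reductase gene (-0.33 ± 0.09, adjusted p = 0.047; 0.16 and 0.29 without day 4 replicates 2 and 3, and 0.18 and 0.13 without day 7 replicates 1 and 3). The day 7 minus day 4 difference of MHCII+ cells was then tested against that of MHCII- cells of the same sets, with 3 MHCII- arrays at day 7 and 2 at day 4. Of 11074 genes 5 passed (0.0452%; 356 at an unadjusted p under 0.05): H2-M2 was more raised in MHCII+ cells, and H2-Ab1, H2-Aa, Cd74 and H2-Eb1 less. In MHCII- cells H2-Ab1 averaged 12.15 at day 7 and 10.55 at day 4, H2-Aa 12.52 and 10.66, Cd74 12.76 and 11.60, and H2-Eb1 11.21 and 9.58. The difference between the subsets was -1.57 ± 0.19 for H2-Ab1 (adjusted p = 2.6e-05), -1.78 ± 0.28 for H2-Aa (0.0014), -1.05 ± 0.16 for Cd74 (0.00079) and -1.55 ± 0.30 for H2-Eb1 (0.026). The subsets were sorted on surface MHCII. H2-M2 averaged 7.23 at day 7 and 6.92 at day 4 in MHCII- cells, and its difference between the subsets was 1.72 ± 0.30 (adjusted p = 0.0057). Both of these means and its MHCII+ day 4 mean of 7.41 lay below the limit of 7.57. Its differences are therefore of intensities and not exact folds of RNA. With single arrays left out, H2-Ab1, H2-Aa and Cd74 stayed past the threshold, whereas the adjusted p reached 0.16 for H2-M2 (without MHCII- day 4 replicate 1; also not called without MHCII+ day 4 replicate 3) and 0.27 for H2-Eb1, which was not called in 8 of these fits. For Lyve1 (1.55 ± 0.52), Ccl8 (1.27), Spon1 (-1.29 ± 0.28) and Pf4 (0.78 ± 0.17) the difference between the subsets did not pass (adjusted p = 0.98, 0.25, 0.097 and 0.097). Cd209f and Slc40a1 rose in MHCII- cells too, by 2.81 ± 0.48 and 2.39 ± 0.41 in limma (adjusted p = 0.00099 and 0.0011). Their difference between the subsets was 0.07 ± 0.66 and 0.20 ± 0.56 and did not pass.

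The other day 7 sets were set against the same day 4 arrays. In the 8 h set 1790 genes passed (16.2%; 1251 higher and 539 lower), and in the set without a DT time 352 passed (3.18%; 182 higher and 170 lower). Without day 4 replicate 2 the 8 h set had 339, and without replicate 1 of the set without a DT time that set had 85. Cd209f rose by 2.88 in the 24 h set, 3.17 in the 8 h set and 2.93 in the set without a DT time, Lyve1 by 1.86, 2.83 and 1.94, and Vsig4 by 1.52, 2.40 and 1.87. Slc40a1 rose by 2.59, 2.32 and 2.20, H2-M2 by 2.03, 2.16 and 2.19, and Ccl8 by 1.70, 1.54 and 2.05. Each of these passed in each comparison (largest adjusted p = 0.0052). Among the lower genes, Spon1 had -1.39, -1.40 and -1.47, Flt3 -1.09, -1.24 and -1.63, Dpp4 -1.28, -1.64 and -2.04, and Plac8 -1.60, -1.60 and -2.22, and all 4 passed in the 3 comparisons. Dpt had 2.03, 2.25 and 1.16, Ogn 1.93, 1.93 and 0.92, Serping1 1.97, 2.15 and 0.63, and Dcn 1.80, 1.83 and 1.18. These 4 passed in the 24 h and 8 h sets and not in the set without a DT time (adjusted p = 0.19, 0.31, 0.51 and 0.20). The same held for Tgfb3, Gclm, Mfge8, Mmp12 and Blvrb (adjusted p = 0.65, 0.66, 0.40, 0.15 and 0.094). Igf1 (0.054 and 0.18) and Nfia (0.097 and 0.11) passed in neither the 8 h set nor the set without a DT time. Iigp1 did not pass in the 8 h set (0.082), whereas Folr2, Cd36, Pdgfc and Nfix passed in each comparison. Since the 3 comparisons share the day 4 arrays, an unusual value in those arrays enters each of them.

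The day 7 sets also differed from each other. In the 24 h set against the 8 h set 1840 genes passed (16.6%; 520 higher and 1320 lower in the 24 h set), and between the 24 h set and the set without a DT time 50 passed (0.452%; 34 higher and 16 lower). These sets differ in DT time and age, and the 8 h set in its gate too. The 5 largest rises against the 8 h set were Scarna13 (1.89 ± 0.45), Slc15a2 (1.54 ± 0.50), Nr4a3, an immediate-early receptor gene (1.51 ± 0.33), Il1a, a cytokine gene (1.46 ± 0.24), and Eid3 (1.36 ± 0.44). The 5 largest falls were the B cell attractant gene Cxcl13 (-1.91 ± 0.48), the endoplasmic reticulum genes Creld2 (-1.40 ± 0.22), Rcn3 (-1.11 ± 0.29) and Sdf2l1 (-1.03 ± 0.19), and the transporter gene Slc15a4 (-1.06 ± 0.19). Their adjusted p ran from 0.00021 to 0.034. Scarna13, Nr4a3, Il1a, Creld2, Slc15a4 and Sdf2l1 passed with each array left out, and Slc15a2, Eid3, Cxcl13 and Rcn3 did not (up to 0.21, 0.13, 0.086 and 0.054). Against the set without a DT time, Ctsk, the cathepsin K gene, was higher by 1.77 ± 0.37, Il6 by 1.73 ± 0.41, Cd24a by 1.63 ± 0.36, P2ry10 by 1.57 ± 0.25 and Ccr7 by 1.56 ± 0.36. Klf2, Stard8, Rhob, Arrdc3 and Rab11fip5 were lower, by 0.76 to 0.93. The adjusted p of these 10 genes ran from 0.0025 to 0.041. With either of the 2 arrays without a DT time left out, 2 genes passed in place of 50 and none of these 10 did, and without replicate 4 of the 24 h set 345 passed. None of the 20 genes passed between day 7 of the 24 h set and day 4.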

How the data were processed

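The deposited table holds linear intensities of Affymetrix Mouse Gene 1.0 ST arrays (24922 probe sets, 45 arrays). Per the submitters' processing notes, the authors used Affymetrix Power Tools and RMA (no versions named). Deposited intensities ran from 9.43 to 24649 and array medians from 174.7 to 203.7; precision is limited by how few arrays there were. The deposited intensities were here converted to log2 values. Of the probe sets, 21425 had 1 gene symbol, 1399 several and 2098 were not listed. The probe set with the highest mean stood for each of 19752 genes. Genes with a mean of at least 7.57 (the median of all values) in any group were tested, 11074 in all.

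One mean for each of 18 groups was fitted over the 45 arrays in limma 3.58.1 (R 4.3.3; 27 residual degrees of freedom, trended eBayes), and p-values were adjusted by Benjamini-Hochberg within each comparison. Adjusted p-values in the text come from this limma fit, "passed" means under 0.05, and differences are on the log2 scale with their SE. The script was tested on simulated data. Groups follow the titles. The text names the 15 passing genes per direction that differed most and did not overlap between the days, predicted and small RNA genes left out, up to 4 members of each list with the smallest p and near members that did not pass, 5 in each direction for the other contrasts, and a fixed set. Members and lists were chosen with earlier results of these data known. Alternatives were other filters, quantile normalization, a pseudocount of 32, the mean over probe sets, the compared arrays alone, array quality weights, no trend, a replicate block and each array left out.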

Additional observations from a re-analysis of the deposited data

Results flagged for a closer look

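Among 132 values or list means examined over the 4 day 7 arrays, 7 had an array whose gap to its nearest neighbour, divided by the range, exceeded Dixon's critical value for 4 samples; chance alone gives about 1 in 20. Replicate 4 was lowest for Cd36 (12.40) and Dpp4 (7.42) and highest for the mean of the CXC chemokine list (9.70). Replicate 3 was lowest for Tnf (11.49) and highest for the mean of the neutrophil list (7.66). Replicate 2 was highest for Gria3 (6.47), and replicate 1 was highest for Plac8 (10.07). The day 7 minus day 4 difference was larger in MHCII+ than in MHCII- cells for H2-M2 (by 1.72), and smaller for H2-Ab1 (-1.57), H2-Aa (-1.78), H2-Eb1 (-1.55) and Cd74 (-1.05), each by limma's test of the difference between the subsets.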

How the results depend on the processing

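The 187 higher and 85 lower genes became 44 and 15 with the compared arrays only, 43 and 14 with array quality weights, 110 and 42 with the replicate block, 107 and 67 with the 75th percentile filter, and 224 and 139 with quantile normalization. Leaving out single arrays gave 22 to 387 higher and 15 to 234 lower. The 8 h set against day 4 had 1150 genes with the 75th percentile filter, 2891 with its compared arrays only, 2702 with weights and 866 with the block (339 to 1397 with arrays left out). The set without a DT time had 857 with compared arrays only and 1138 with weights (85 to 183 with arrays left out). The 24 h against the 8 h set had 759 with compared arrays only (694 to 1988 with arrays left out). The 24 h set against the set without a DT time had 111 with quantile normalization, 3 with compared arrays only, 750 with weights and 88 with the block (2 to 345 with arrays left out), and the difference between subsets 3 to 7 with arrays left out. The deviations of same-numbered day 7 and day 4 arrays from their group means correlated at -0.363 and -0.457. Against the other day 4 array the same day 7 arrays had 0.363 and 0.457, since deviations of 2 arrays mirror each other. These signs therefore cannot show whether same-numbered arrays are related, and the block rests on shared numbers only. For the set without a DT time against day 4 no paired analysis was possible because fewer than 2 numbers are shared. Of the 64 named genes that passed, 32 did not pass with compared arrays only, 39 with weights, 19 with the block, 39 without day 4 replicate 2 and 38 without day 4 replicate 3. Differences near 0 that did not pass changed sign: Gpnmb was 0.03 and Siglecf -0.00 with weights, and Gpnmb 0.07 with the block. With arrays left out, Adgre1 ranged from -0.13 to 0.06, Arg1 from -0.99 to 0.12, Ciita from -0.06 to 0.21, Gpnmb from -0.05 to 0.07, H2-Ab1 from -0.01 to 0.05, Mki67 from -0.04 to 0.25 and Siglecf from -0.01 to 0.13. The causes were not tested, except that leaving out arrays and comparing fewer arrays leaves fewer samples.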
